A study of Mus musculus with 2 samples.

Results

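The cells described here are 65 metaphyseal cells with transcripts of both cartilage and cell division genes, 15 from a vehicle library and 50 from a teriparatide library, out of 3428 barcodes in all. They were chosen by their own read counts. A barcode had to hold 200 to 6000 detected genes, at most 10% mitochondrial UMIs (unique molecular identifiers, each standing for 1 captured transcript), no Ptprc, at least 1 Sox9 UMI, at least 5 Acan UMIs per 10000 and under 20 Col10a1 UMIs per 10000. Of the 302 barcodes that met those terms (56 vehicle, 246 teriparatide), the 65 also held a UMI of at least 2 of 11 cycle genes: Mki67, Top2a, Cdk1, Ccnb1, Ccnb2, Birc5, Cenpf, Tpx2, Ube2c, Rrm2 and Tyms. The 302 are called Sox9 Acan cells below, the 65 cycling cells, and the other 237 (41 and 196) non-cycling cells. Expression of Sox9, Acan, Col10a1 and the 11 cycle genes therefore describes the choice and is no finding.

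Both libraries came from the femoral metaphysis of 1-month-old Gli1-CreERT2; Ai9 mice of both sexes, on a mixed background. In these mice tamoxifen given before the treatment turned on the tdTomato reporter in cells with Gli1-driven Cre activity, and their progeny kept the label. The control mice carried the same alleles and received the same tamoxifen. One group was injected with vehicle and the other with teriparatide, a fragment of human parathyroid hormone, at 400 ng/g body weight for 3 days. The epiphysis was taken off, and tdTomato+ cells negative for CD31, CD45 and Ter119 were sorted, although blood cell barcodes remained in both libraries. Each treatment gave 1 library, so no difference between the treatments could be tested. Every interval below is a 95% interval (exact Poisson for a level, exact binomial for a share, conditional binomial for a log2 ratio, Newcombe for a difference of shares) that covers counting error only, not the spread between animals.

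In a growth plate, resting chondrocytes at the top give rise to columns of flat, dividing chondrocytes, which then leave the cycle, enlarge and lay the ground for bone. Sox9 is the transcription factor that defines the lineage, and Acan encodes aggrecan, the main proteoglycan of cartilage. Indian hedgehog from cells about to enlarge and parathyroid hormone-related protein from the resting zone control when columnar cells stop dividing, and teriparatide acts on the receptor of the latter, Pth1r. Genes of DNA synthesis are switched on at entry into S phase by E2F factors, and genes of mitosis are switched on later, in G2 and M.

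The vehicle library held 1286 barcodes and 10567335 UMIs, and the teriparatide library 2142 barcodes and 26270041 UMIs. The chosen cells were among the deepest. Cycling cells had a median of 33150 UMIs with vehicle and 38154.5 with teriparatide, against 28456 and 28009.5 in non-cycling cells and 3622 and 6217.5 over all barcodes. A deeper cell has more chances to show a UMI of a rare gene, so depth moves with the choice itself. The libraries had 2 barcode sequences in common, 1 of them among the Sox9 Acan cells. Of the cycling cells, 11 vehicle and 41 teriparatide cells held Y-linked UMIs only, 3 and 6 held Xist only, 0 and 2 held both, and 1 in each library held neither.

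Most cells showed few of the cycle genes and a small number showed most of them. Among the 56 vehicle Sox9 Acan cells, 27 showed none of the 11 genes, 14 showed 1, 6 showed 2, 5 showed 3 or 4, and 4 showed 9 or 11. Among the 246 teriparatide cells, 117 showed none, 79 showed 1, 23 showed 2, 13 showed 3 or 4, and 14 showed 5 to 11. The cells just inside the limit (29 with 2 genes) were therefore fewer than those just outside it (93 with 1 gene), and no Sox9 Acan cell of either library showed 6 or 8 genes. Because 47 of the 65 cycling cells held only 2 to 4 of the genes and 18 held 5 to 11, both ranges are followed separately below. This division was made after the numbers were seen. In the teriparatide library the cells at 3, 4 and 5 genes form a run with no gap at it (10, 3 and 3 cells). In the vehicle library 1, 4 and 0 cells showed 3, 4 and 5 genes. With 4 vehicle cells in the upper range, its vehicle values rest on very few cells.

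**Figure D1:**
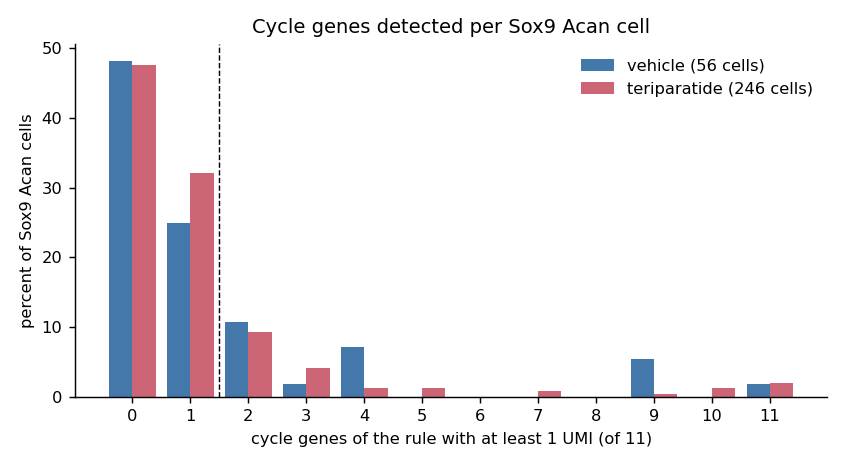
Number of the 11 cycle genes with at least 1 UMI (horizontal axis) in Sox9 Acan cells, as a percent of the 56 vehicle and 246 teriparatide cells (vertical axis); cells to the right of the dashed line were chosen. Most cells show none or 1 gene, and a small number show 9 to 11.

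Within the cycling cells, Top2a, the topoisomerase that untangles replicated DNA, had 22 UMIs in 4 of the 15 vehicle cells and 251 UMIs in 15 of the 50 teriparatide cells. Mki67, which coats mitotic chromosomes, had 19 UMIs in 5 vehicle and 136 in 16 teriparatide cells. The median cell of either library therefore held no UMI of either gene. Rrm2, a subunit of the enzyme that makes deoxynucleotides, was found in more cells, 9 of 15 and 30 of 50, as was the mitotic kinase gene Cdk1 with 9 and 34. Only 5 cells held 70.9% of the Top2a UMIs of the teriparatide library. In the range of 5 to 11 genes, Top2a reached 149 CPM (UMIs per 1000000) with vehicle and 474 CPM with teriparatide, with UMIs in 3 of 4 and 11 of 14 cells. In the range of 2 to 4 genes it was at 2.91 and 3.74 CPM, found in 1 of 11 and 4 of 36 cells.

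Independent lists, which share no gene with the rule, were then read in the same cells. One holds 36 S-phase genes (MCM helicase subunits, Pcna, Dut and others), the other 37 G2/M genes (Ccna2, Cdc20, Plk1, kinesins, Cenpa, Hmgb2 and others). Over both libraries the G2/M list summed to 255 CPM (239 to 271) in cells with none of the 11 rule genes, 298 CPM (278 to 319) with 1, 287 CPM (255 to 321) with 2 and 378 CPM (332 to 428) with 3 or 4. It summed to 6218 CPM (6029 to 6411) in the 18 cells with 5 or more. The S-phase list gave 397, 424, 441 and 480 CPM in the first 4 ranges and 2297 CPM (2183 to 2415) in the last. The 47 cycling cells with 2 to 4 rule genes thus had S-phase and G2/M levels of 456 CPM (424 to 490) and 322 CPM (295 to 350), nearer to those of cells chosen as non-cycling than to those of the 18. By these independent genes the data go against the name cycling for most of the 65 cells, and the name is kept here only as the outcome of the rule. The same held within each library: the G2/M list was at 360 CPM in the 11 vehicle and 312 CPM in the 36 teriparatide cells with 2 to 4 genes, against 4045 CPM in the 4 and 6806 CPM in the 14 cells with 5 or more and 239 and 280 CPM in non-cycling cells.

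**Figure D2:**
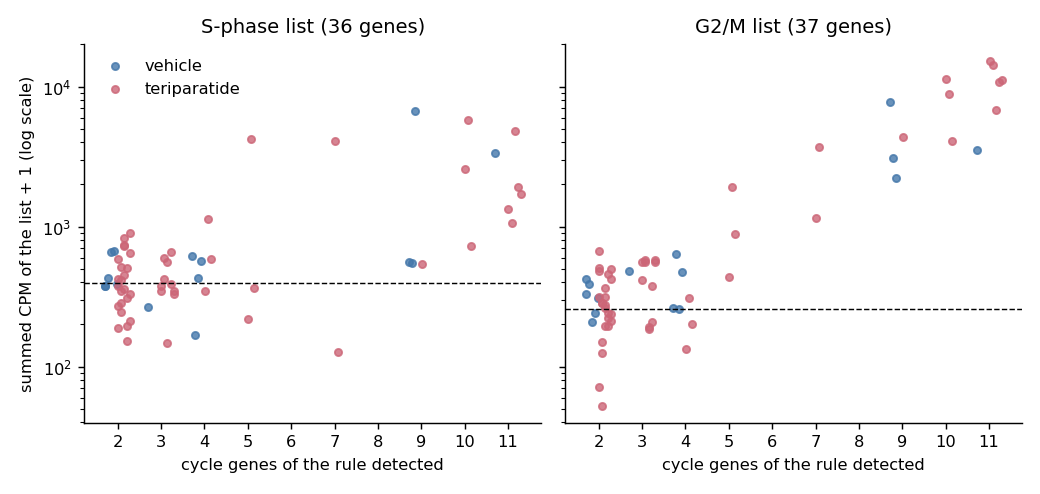
Summed CPM plus 1 on a log scale (vertical axes) of the S-phase list (left) and the G2/M list (right) in each of the 65 cycling cells, by the number of rule genes found (horizontal axes); neither list holds a rule gene. The dashed lines are the levels in cells with none of the 11 genes, 397 and 255 CPM, and cells with 2 to 4 genes scatter around them.

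Single cells of the upper range differed in which list they carried. In the vehicle library, 1 cell held 241 S-phase and 81 G2/M UMIs, 1 held 125 and 130, 1 held 19 and 108, and 1 held 18 and 250. In the teriparatide library the G2/M list ran from 438 CPM in a cell with 5 rule genes to 15158 CPM in a cell with all 11. A cell was called S-leaning where the S-phase list had more than 2 UMIs per UMI of the G2/M list and G2/M-leaning in the reverse case. By that measure the upper range had 1 S-leaning cell of 4 with vehicle and 2 of 14 with teriparatide, and 2 of 4 and 9 of 14 G2/M-leaning cells. Over all cycling cells with at least 10 UMIs of both lists together, 4 of 15 vehicle cells (26.7%, 7.79 to 55.1) and 14 of 49 teriparatide cells (28.6%, 16.6 to 43.3) were S-leaning. Of these S-leaning cells, 3 vehicle and 12 teriparatide cells held only 2 to 4 rule genes. Cells with none of the rule genes already held more of the S-phase list (397 CPM) than of the G2/M list (255 CPM). These shares are therefore no measure of cells in S phase. Low counts set many of these calls: 17 of the 65 cells lay within 5 percentage points of a limit, and cells with 2 to 4 genes were placed from few UMIs of the lists.

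In the 18 cells of the upper range, 10 of 11 S-phase genes tested and 10 of 11 G2/M genes tested were at least 2-fold above the non-cycling cells of the same library in both libraries, beside 2.73% of all 5162 genes tested (mean CPM at or above 20). Of 36 S-phase and 37 G2/M genes, 11 and 11 passed that limit, and 5 and 7 of these were under 20 CPM in non-cycling cells and passed only through the cycling cells, so they had to differ and these counts support nothing by themselves. In the 47 cells, 0 of 11 and 1 of 11 were, beside 0.349% of all genes, and 0 and 2 were at least 2-fold lower, beside 0.775%. Hmgb2, a chromatin protein of dividing cells, was at 1386 and 2074 CPM in the upper range of the vehicle and teriparatide libraries, 128 and 144 CPM in the lower range, and 92.8 and 131 CPM in non-cycling cells. Stmn1, which destabilises microtubules, was at 618 and 1303 CPM in the upper range against 5.25 and 9.18 CPM in non-cycling cells, and at 81.4 and 12.7 CPM between them. Ccna2, the cyclin of S phase and G2, was at 99.5 and 193 CPM in the upper range, with 0 and 1 UMIs in the lower. Stmn1 and Ccna2 were both under 20 CPM in non-cycling cells. They passed the limit only through the cycling cells, so they had to differ. H2afz, a histone variant, was at 2097 and 2507 CPM against 247 and 227 CPM. Dut, which clears dUTP before replication, was at 313 and 289 CPM against 71.8 and 55.8 CPM. Pcna, the replication clamp, was at 185 CPM (121 to 271) in 3 of 4 vehicle cells and 73.2 CPM (51.8 to 100) in 8 of 14 teriparatide cells, against 58.7 and 31.9 CPM in non-cycling cells. Of 17 chromatin and tubulin genes tested, 14 were past 2-fold higher in both libraries. Stmn1, Hmgb3, Lmnb1 and Hist1h2ap, 4 of the 17, passed the limit only through the cycling cells. The replication-dependent histone gene Hist1h2ap differed between the libraries in the upper range, at 21.3 CPM (4.40 to 62.3) with vehicle and 857 CPM (779 to 940) in the teriparatide cells, and 81.8% of its UMIs in the teriparatide cycling cells lay in 5 cells. Over all vehicle cycling cells Hist1h2ap was under 20 CPM. It passed the limit between the treatments only through the teriparatide cells, so its difference supports nothing by itself.

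Promoters of these genes are shown because the genes that set the upper range apart are known for shared promoter elements. CCAAT boxes bind NF-Y, and the cell cycle genes homology region (CHR) recruits the complexes that hold mitotic genes silent until G2. The CHR was searched as TTTGAA and, as a variant spelling of the same length, TTCGAA. Each sequence is the 150 bases before the transcription start, from RefSeq (GRCm38.p6), 5′ to 3′ on the gene's strand, with CCAAT boxes and both spellings of the CHR on either strand in capitals. Top2a (chr11:99024190-99024339, - strand), Mki67 (chr7:135716380-135716529, - strand), Ccnb2 (chr9:70421555-70421704, - strand), Cdc20 (chr4:118437344-118437493, - strand) and Hmgb2 (chr8:57511693-57511842, + strand) are rule or cycle-list genes, and Ppa1 (chr10:61648471-61648620, + strand), a gene named for these cells, is of neither kind.
Top2a: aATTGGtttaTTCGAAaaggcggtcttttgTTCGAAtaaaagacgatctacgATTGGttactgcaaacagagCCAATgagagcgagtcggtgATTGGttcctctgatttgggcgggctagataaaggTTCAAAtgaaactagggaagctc
Mki67: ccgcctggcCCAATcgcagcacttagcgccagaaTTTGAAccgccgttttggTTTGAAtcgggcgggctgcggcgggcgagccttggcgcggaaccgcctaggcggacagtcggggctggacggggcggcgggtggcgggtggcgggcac
Ccnb2: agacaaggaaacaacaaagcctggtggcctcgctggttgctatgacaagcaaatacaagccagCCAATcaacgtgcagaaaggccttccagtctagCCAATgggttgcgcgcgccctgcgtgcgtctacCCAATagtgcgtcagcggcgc
Cdc20: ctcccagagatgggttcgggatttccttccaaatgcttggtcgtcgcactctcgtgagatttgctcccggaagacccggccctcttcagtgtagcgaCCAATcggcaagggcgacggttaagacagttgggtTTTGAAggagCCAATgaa
Hmgb2: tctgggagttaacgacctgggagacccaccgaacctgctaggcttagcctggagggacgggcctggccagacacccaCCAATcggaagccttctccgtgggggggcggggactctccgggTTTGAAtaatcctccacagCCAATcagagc
Ppa1: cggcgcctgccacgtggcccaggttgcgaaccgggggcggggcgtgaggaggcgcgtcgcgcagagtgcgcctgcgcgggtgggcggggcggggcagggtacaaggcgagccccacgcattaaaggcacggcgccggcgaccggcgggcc
In these windows Top2a held 4 CCAAT boxes and 3 CHR matches, Mki67 1 and 2, Ccnb2 3 and 0, Cdc20 2 and 1, Hmgb2 2 and 1, and Ppa1 none of either. A CCAAT box was present in 23 of 32 G2/M-list promoters that matched the table (71.9%), in 8 of 10 rule-gene promoters, in 13 of 26 S-phase promoters, in 5 of 19 cartilage matrix promoters (26.3%) and in 25.3% of all 27025 promoters. A CHR match was present in 9 of 32 G2/M promoters (28.1%), 2 of 26 S-phase promoters (7.69%) and 9.89% of all. E2F-type letters, searched on both strands as TTTCCCGC and in a further spelling as TTTGGCGC, were in 5 of 26 S-phase promoters (19.2%), 0 of 32 G2/M promoters and 0.895% of all. These are matches of letters and not shown sites.

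Cartilage matrix genes were abundant in the cycling cells. Col2a1, the collagen that makes up most cartilage fibrils, had UMIs in all 65 cells, from 9229 to 103785 CPM (median 37207) with vehicle and from 12763 to 89913 CPM (median 48179) with teriparatide. Non-cycling cells spanned 4449 to 81843 and 605 to 124972 CPM, so the ranges overlapped almost wholly. Sox9 (chr11:112782224-112787760 in mm10, + strand) summed to 854 CPM (774 to 940) and 944 CPM (900 to 989) in cycling cells, with every cell holding at least 4 and 6 UMIs. Acan (chr7:79053483-79115099, + strand) summed to 2949 and 3096 CPM, and the cells closest to the limit held 7.76 and 7.15 UMIs per 10000, while the nearest cells left out held 3.66 and 2.46. Of 23 cartilage matrix genes tested, none was 2-fold higher in cycling than in non-cycling cells in both libraries and 1 was lower, Cytl1, a secreted cartilage cytokine (109 and 137 against 299 and 619 CPM). Over all 5162 genes, 1.05% were higher and 1.05% lower by that rule. In the upper range the Sox9 level was 675 CPM (546 to 826) with vehicle and 657 CPM (589 to 730) with teriparatide, against 880 and 1109 CPM in non-cycling cells.

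Ppa1 and Ndufa4l2, the other markers named for these cells, did not separate them. Ppa1 encodes the pyrophosphatase that removes the pyrophosphate released by biosynthesis, and Ndufa4l2 a mitochondrial protein induced by low oxygen. Ppa1 was found in 15 of 15 vehicle cycling cells, from 42.0 to 9680 CPM with a median of 1795, and in 49 of 50 teriparatide cells, from 0 to 15632 CPM with a median of 1790. Non-cycling cells had medians of 215 and 159 CPM but reached 7181 and 15090 CPM. The summed level was 2564 CPM against 1279 CPM in the vehicle library and 3224 against 1688 CPM in the teriparatide library, log2 ratios of 1.00 and 0.93. The Ppa1 level of the lower range, 2455 and 3657 CPM, lay near or above that of the upper, 2829 and 2110 CPM, but a few cells carried it: the median cell was at 276 and 1185 CPM in the lower range and 2831 and 2041 CPM in the upper. It also differed by zone: among teriparatide cells with columnar marks (defined in the next paragraph) it was 4583 CPM (4451 to 4718) in 26 cycling and 3287 CPM (3215 to 3360) in 80 non-cycling cells, and among those with resting marks 1733 CPM (1642 to 1828) in 22 and 217 CPM (200 to 236) in 100. In the vehicle library it was 2803 CPM in 4 cycling and 1915 CPM in 5 non-cycling cells with columnar marks and 1771 CPM in 5 and 928 CPM in 27 with resting marks. Among vehicle cells with neither it was 3013 CPM in 6 cycling and 1734 CPM in 9 non-cycling cells. The teriparatide cells with neither ran the other way, at 1010 CPM (810 to 1244) in 2 cycling and 1816 CPM (1700 to 1938) in 16 non-cycling cells. Ndufa4l2 was at 1087 against 564 CPM in the vehicle library and 591 against 476 CPM in the teriparatide library. In the upper range it was at 1280 CPM in the 4 vehicle cells, which held 109, 69, 1 and 1 UMIs, and at 283 CPM in 9 of 14 teriparatide cells.

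Cycling cells held less of the resting-zone genes. Of 6 tested genes of that list, 5 were at least 2-fold lower than in non-cycling cells in both libraries, Sfrp5, Cpm, Pthlh, Meg3 and Igf1, beside 1.05% of all genes, and the median log2 ratio of the list was -2.21 and -1.88 against 0.03 and 0.04 over all genes. Pthlh was under 20 CPM in cycling cells and passed the limit only through the non-cycling cells, so it had to differ. Cpm, a carboxypeptidase, was at 35.1 CPM in vehicle and 51.2 CPM in teriparatide cycling cells against 284 and 241 CPM. Meg3, a long noncoding RNA, was at 326 and 215 CPM against 865 and 620 CPM. Pthlh, which encodes parathyroid hormone-related protein, had 0 UMIs in vehicle cycling cells and 8.09 CPM, all from 1 cell, in the teriparatide library, against 34.1 and 50.4 CPM. This pattern was present in both ranges: 6 of 6 list genes were 2-fold lower in the 18 cells, beside 4.24% of all genes, and 4 of 6 in the 47 cells, beside 0.775%. A cell was given resting marks where at least 2 of Sfrp5, Cpm and Hhip had a UMI, and columnar marks where it did not and Chad reached 5 UMIs per 10000. Resting marks were carried by 5 of 15 vehicle cycling cells (33.3%, 11.8 to 61.6) against 27 of 41 non-cycling cells (65.9%, 49.4 to 79.9). In the teriparatide library they were carried by 22 of 50 (44.0%, 30.0 to 58.7) against 100 of 196 (51.0%, 43.8 to 58.2). The intervals of cycling and non-cycling cells overlap in both libraries. Columnar marks were carried by 4 of 15 against 5 of 41 and by 26 of 50 against 80 of 196. The cells left without either were 6 of 15 and 2 of 50 cycling cells.

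**Figure D3:**
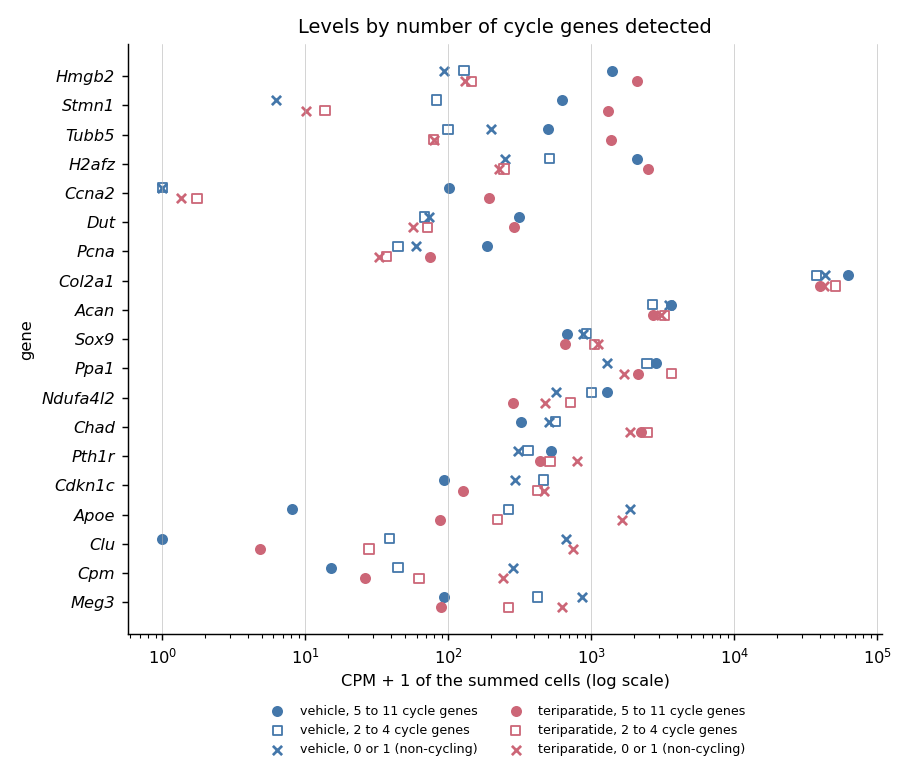
CPM plus 1 on a log scale (horizontal axis) of 19 genes (vertical axis) in the summed Sox9 Acan cells of each library, by the number of rule genes found; the upper range holds 4 vehicle and 14 teriparatide cells, the lower 11 and 36, and non-cycling cells number 41 and 196. Hmgb2, Stmn1, Tubb5 and H2afz are highest in the upper range in both libraries, while Apoe, Clu, Cpm and Meg3 are lower in both ranges than in non-cycling cells. Stmn1 and Ccna2 passed the limit of 20 CPM only through the cycling cells. Clu and Cpm passed the naming limit of 50 CPM only through the non-cycling cells.

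Outside the cycle lists, the genes highest in cycling against non-cycling cells in both libraries were Hes1, Hmgcs1, H1fx, Sox11, Nucks1, Matn1, Ppa1, Col15a1, Clec11a and Elovl6. Hes1, a repressor downstream of Notch, was at 120 CPM in vehicle and 106 CPM in teriparatide cycling cells against 42.0 and 50.2 CPM, but in the few female cells the smaller of the library ratios was -1.22. Hmgcs1, an enzyme of sterol synthesis, was at 276 and 281 CPM against 127 and 115 CPM, and reached 483 and 402 CPM in the upper range. H1fx, a linker histone, was at 70.1 and 103 CPM against 30.6 and 35.1 CPM. Sox11, a transcription factor of progenitor cells, was at 134 and 59.3 CPM against 63.9 and 29.5 CPM. The other 6 lay between log2 ratios of 0.76 and 1.24 in both libraries. All the listed genes were named at a mean of 50 CPM or more. By the mean of the libraries, Hes1, H1fx and Sox11 were under 50 CPM in non-cycling cells. They reached the naming limit only through the cycling cells, so their place in this list supports nothing by itself. Matn1, a cartilage matrilin, was found in 11 of 15 and 36 of 50 cycling cells against 14 of 41 and 75 of 196 non-cycling cells.

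The genes lowest in cycling cells were F13a1, Clu, Apoe, Spon1, Spp1, Cpm, Serpine2, Dcn, Slc40a1 and Scara3. F13a1 (6.19 and 1.08 CPM) and Spon1 (14.4 and 3.24 CPM) were under 20 CPM in vehicle and teriparatide cycling cells. Both passed the limit of 20 CPM only through the non-cycling cells, so they had to differ. The listed genes were named at a mean of 50 CPM or more. By the mean of the libraries, at least Clu and Cpm were also under 50 CPM in cycling cells. They reached the naming limit only through the non-cycling cells, so their place in this list supports nothing by itself. Apoe, a lipid carrier, was at 190 CPM in vehicle and 183 CPM in teriparatide cycling cells, with UMIs in 5 of 15 and 27 of 50 cells, against 1853 CPM (1775 to 1934) and 1636 CPM (1602 to 1669). Clu, a secreted chaperone abundant in articular and resting cartilage, was at 26.8 and 20.5 CPM against 668 and 744 CPM, and the 18 cells of the upper range held 0 UMIs with vehicle and 3.85 CPM with teriparatide. Dcn, the small proteoglycan decorin, was at 155 and 174 CPM against 545 and 564 CPM. Within resting-mark cells alone, Apoe was at 387 CPM in teriparatide cycling cells and 3280 CPM in non-cycling cells, and Clu at 32.3 against 1362 CPM. In the few female cells the smaller of the 2 library ratios was 2.18 (0.97 to 3.55) for Apoe and 0.12 (-0.83 to 1.05) for Cpm, the reverse of the pooled direction.

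The share of Sox9 Acan cells chosen as cycling was 15 of 56 (26.8%, 15.8 to 40.3) with vehicle and 50 of 246 (20.3%, 15.5 to 25.9) with teriparatide. The difference of -6.46 percentage points had a counting interval of -20.1 to 4.79, which says nothing of the spread between animals. At 5 or more rule genes the shares were 4 of 56 (7.14%, 1.98 to 17.3) and 14 of 246 (5.69%, 3.15 to 9.36), a difference of -1.45 points (-11.5 to 4.20). Reading the cycle genes after each cell was thinned to 5000 UMIs, which left out 8 shallower teriparatide cells, gave 7 of 56 (12.5%) and 14 of 238 (5.88%). That difference was -6.62 points (-18.0 to 0.722). Y-bearing cells alone gave 11 of 47 and 41 of 219, and Xist-bearing cells 3 of 8 and 6 of 16. Within cells with resting marks the shares were 5 of 32 and 22 of 122, and within those with columnar marks 4 of 9 and 26 of 106. Within cells with neither they were 6 of 15 with vehicle and 2 of 18 with teriparatide.

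**Figure D4:**
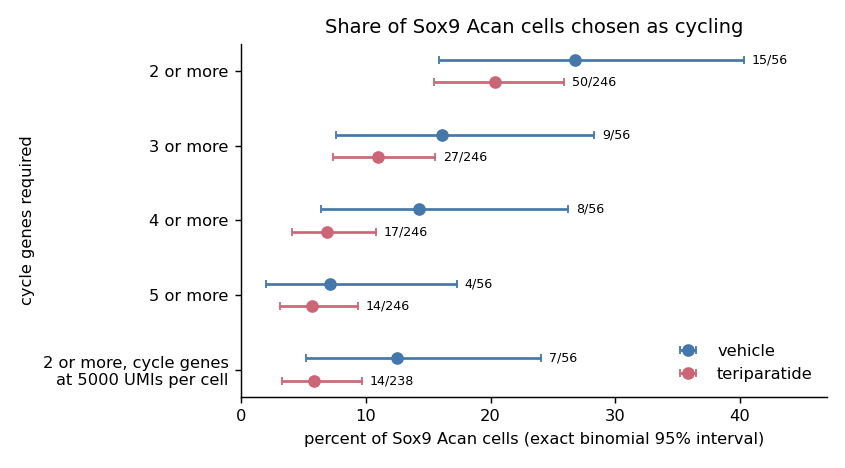
Percent of Sox9 Acan cells chosen (horizontal axis, with exact binomial 95% intervals) when 2, 3, 4 or 5 of the 11 cycle genes were required, or 2 after the cycle genes were read at 5000 UMIs per cell (vertical axis); labels give the cells. The vehicle and teriparatide intervals overlap under each requirement.

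The same test of at least 2 cycle genes was set beside other cells of the libraries. It was met by 9 of 199 cells (4.52%) in an osteoblast gate, by 9 of 245 (3.67%) in a gate for MALPs, the marrow adipogenic lineage precursors, by 0 of 41 in an osteocyte gate, which allows a share of up to 7.32% by a limit of 3 counts and 8.60% by the exact binomial bound, by 4 of 16 (25.0%, 7.27 to 52.4) in a preosteoblast gate, by 3 of 52 (5.77%) in a mature neutrophil gate and by 98 of 109 (89.9%) in an erythroid gate. In Sox9 Acan cells it was met by 65 of 302 (21.5%). Median depths were 16483, 12161, 6544, 12614, 4576, 13164 and 30524 UMIs in that order, so the shares are not at matched depth. Thinning to 5000 UMIs left out 36, 28, 15, 3, 27, 25 and 8 shallower cells in that order, so the thinned shares are over fewer cells. The shares became 1.84%, 0.922%, 0 of 26 cells, 3 of 13 (23.1%), 3 of 25, 82.1% and 7.14% (4.48 to 10.7). Osteocytes are post-mitotic, and the shares outside the Sox9 Acan cells show the level of this measure in other cells of the same libraries. The 5 or more rule genes of the upper range were met by 2 of 199 osteoblast-gate, 0 of 245 MALP-gate, 0 of 41 osteocyte-gate, 3 of 16 preosteoblast-gate, 3 of 52 neutrophil-gate and 80 of 109 erythroid-gate cells, beside 18 of 302 (5.96%) Sox9 Acan cells. All 3 neutrophil-gate cells with at least 2 cycle genes thus held 5 or more. Whether these 3 were mature neutrophils was not tested.

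Teriparatide and vehicle cycling cells were compared gene by gene as a log2 ratio of summed CPM, with 5165 genes at a mean of 20 CPM or more. The median log2 ratio was -0.23, and changes below are to be read against that shift. A gene was counted as apart where the ratio reached 2-fold and its counting interval left out 0 on the log2 scale. By that rule 150 genes (2.9%) were higher and 306 (5.92%) lower in the teriparatide cells. Of these, 63 of the 150 lay under 20 CPM with vehicle and 162 of the 306 under 20 CPM with teriparatide, so they passed the mean filter through the group where they were high. With the median ratio as the scale instead, 241 were higher and 135 lower, so the balance of the directions depends on the scale. The non-cycling cells of the same libraries gave a median of -0.22.

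Chad, which encodes the cartilage adhesion protein chondroadherin, was far apart between the treatments. Its level was 491 CPM in vehicle cycling cells, with a median cell at 386 and a highest at 1824 CPM, and 2405 CPM in teriparatide cells, with a median of 1422 and a highest of 11517 CPM. The log2 ratio was 2.29 (2.1 to 2.5), and the ranges of single cells overlapped. Non-cycling cells showed a log2 ratio of 1.87, and both ranges of the cycling cells did likewise, at 320 and 2231 CPM with 5 or more rule genes and 561 and 2472 CPM with 2 to 4. Chad also defines the columnar marks. Within columnar-mark cells it was at 1033 CPM in 4 vehicle and 3748 CPM in 26 teriparatide cycling cells. Stc2, a secreted stanniocalcin, was at 43.3 and 146 CPM (log2 1.75, 1.11 to 2.47), with non-cycling cells at 24.5 and 156 CPM. Stc2 reached the limit of 50 CPM for named genes only through the teriparatide cells. Mia, a small secreted cartilage protein, was at 749 and 1815 CPM, with 860 and 1787 CPM in non-cycling cells.

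The other genes highest in teriparatide cycling cells, with under 50% of their teriparatide UMIs in 5 cells, were S100a6, Mgst2, Serinc5, Bola2, Ddit4, Usmg5, Gpx3, Myeov2 and Polr2l. S100a6, a calcium-binding protein, was at 192 CPM in vehicle and 977 CPM in teriparatide cells, found in every cell of both (log2 2.35, 2.05 to 2.67, against 1.15 in non-cycling cells). Mgst2, a microsomal glutathione transferase, had 9 vehicle UMIs in 4 of 15 cells, and its ratio was -0.29 (-2.51 to 2.34) in female cells alone. At 18.6 CPM with vehicle and 85.2 CPM with teriparatide, it passed the limit of 20 CPM only through the teriparatide cells. Serinc5, a membrane protein, was at 53.6 and 215 CPM (log2 2.0, 1.43 to 2.63, against 2.11), though in the 3 and 6 female cells alone the ratio was -1.12 (-2.66 to 0.46). Ddit4, an inhibitor of mTOR signalling, was at 35.1 and 113 CPM (log2 1.68, 0.97 to 2.49, against 0.60). The listed genes were named at a mean of 50 CPM or more. Mgst2, Ddit4, Bola2 (35.1 CPM) and Polr2l (45.4 CPM) were under that with vehicle. They reached the naming limit only through the teriparatide cells, so their place in this list supports nothing by itself. Gpx3, a secreted peroxidase, was at 103 and 294 CPM, below the 439 and 533 CPM of non-cycling cells. Rpl41, a ribosomal protein, was at 2658 and 6712 CPM. The 82 ribosomal protein genes had a median log2 ratio of 0.27 in cycling and 0.21 in non-cycling cells, with 7 past 2-fold higher and 1 lower, beside 2.9% and 5.92% of all genes, and summed to 186409 and 231655 CPM in cycling cells.

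The lowest by the same rule were Ppp1r14b, Cfl2, Tmem263, Txnl4a, Pdia3, Akap13, Rnf10, Selk, Ifi27, Kdelr1, Rnf187 and Sar1a, with log2 ratios from -1.03 to -0.73. Only Ppp1r14b, a phosphatase inhibitor, passed 2-fold (247 and 121 CPM). Rnf10, at 66.0 and 36.7 CPM, reached the limit of 50 CPM for named genes only through the vehicle cells. Pdia3, a protein disulfide isomerase, was at 497 and 265 CPM, with a log2 ratio of -1.17 in non-cycling cells. Since 5 of 15 vehicle cells readily hold most UMIs of a gene, the limit of under 50% in 5 cells left out many genes that were high in a few vehicle cells.

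**Figure D5:**
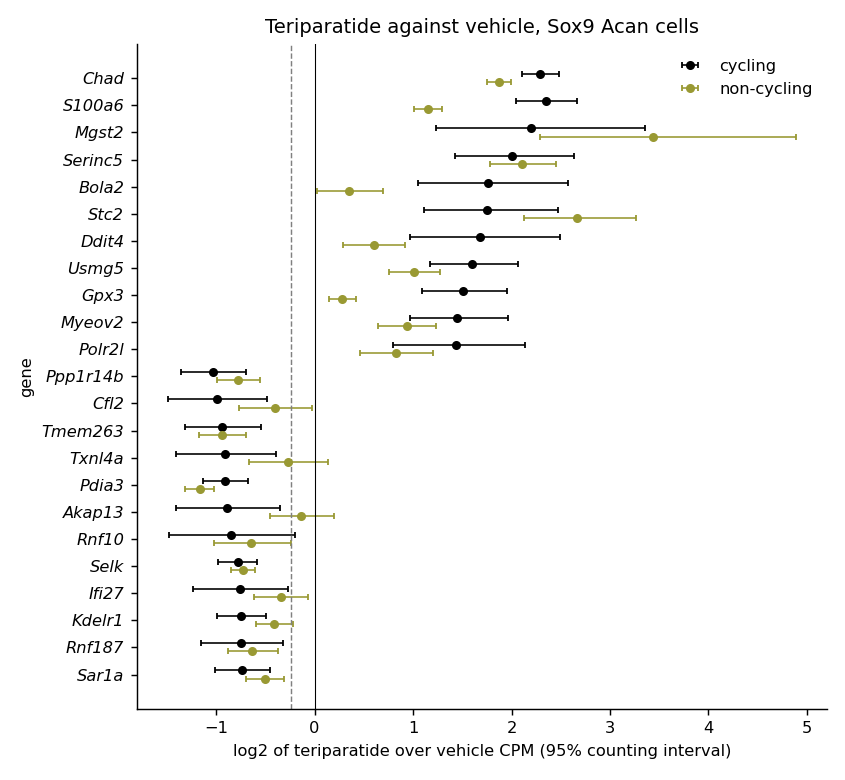
Log2 ratio of teriparatide over vehicle CPM (horizontal axis, 95% counting intervals) for 23 genes named by rule (vertical axis), in cycling cells (black) and non-cycling cells (olive); the dashed line is the median of all genes tested in cycling cells, -0.23. The points of both cell sets lie on the same side of 0 for each of the 23 genes. Mgst2, Bola2, Stc2, Ddit4 and Polr2l reached the naming limit of 50 CPM only through the teriparatide cells. Rnf10 reached it only through the vehicle cells.

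Of 24 genes of glycolysis and low oxygen tested, 3 had a ratio above 0, beside 1644 of all 5165. Among the 24, 2 were past 2-fold lower, Pgk1 and Slc16a3 (5.92% of all genes), and 2 higher, Ddit4 and Ndrg1 (2.9% of all), and the median log2 ratio was -0.63 in cycling and -0.65 in non-cycling cells. Ndrg1, at 14.4 CPM with vehicle, passed the limit only through the teriparatide cells. Pgk1, phosphoglycerate kinase, was at 464 and 103 CPM in cycling and 357 and 83.3 CPM in non-cycling cells. Slc16a3, a lactate exporter, was at 221 and 88.4 CPM. Eno1, Ldha and Gapdh, of the same pathway, were at 1547 and 832, 1541 and 896, and 1953 and 1319 CPM. The 76 genes of oxidative phosphorylation had a median of 0.12 in cycling and -0.13 in non-cycling cells. Of these, 1 was past 2-fold higher and 0 lower, beside 2.9% and 5.92% of all genes.

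Among cycle genes outside the rule that passed the filter, 18 of 22 G2/M genes lay above a ratio of 0 and 4 of 19 S-phase genes did, beside 1644 of all 5165 genes, with median log2 ratios of 0.58 and -0.45. Of these, 7 G2/M and 6 S-phase genes were under 20 CPM in one treatment, so the counts describe the genes that passed and support no direction. Of 22 G2/M genes tested, 6 were higher in teriparatide cells (Cdc20, Kif11, Nusap1, Prc1, Anln, Spc25) and 1 lower (Cenpe), 5 of those 7 under 20 CPM in the lower group, beside 2.9% and 5.92% of all genes. Of 19 S-phase genes, 1 was higher (Tk1) and 4 lower (Mcm3, Mcm5, Rpa2, Ung). In the vehicle library 5 cells held 100% of the UMIs of 10 of these 12 genes, the exceptions being Rpa2 and Ung, at 87.5% and 93.3%, so these counts rest on very few vehicle cells. Of the 7 genes tested of the G1 list, Ccnd1, E2f1 and E2f4 were lower, beside 5.92% of all genes. E2f1 and E2f4 were under 20 CPM with teriparatide and passed only through the vehicle cells. Ccnd1, cyclin D1, was at 233 CPM in 9 of 15 vehicle and 107 CPM in 35 of 50 teriparatide cells, with medians of 69.0 and 77.9 CPM. The vehicle cells reached 1011 CPM, and 5 of them held 92.0% of the vehicle UMIs. The ratio was 0.14 (-0.58 to 0.90) with every cell thinned and 0.18 (-0.53 to 0.93) with only the cycle genes thinned. Both were the reverse of the pooled direction, but the intervals included 0. Among inhibitors of the cycle, Cdkn1a (p21) was at 171 and 90.6 CPM and Cdkn1c (p57) at 357 and 336 CPM. Cdkn1c was lower in the upper range, at 92.4 and 125 CPM, than in the lower range, at 465 and 418 CPM, and Cdkn2c (p18) was higher there, at 78.2 and 218 against 32.0 and 35.2 CPM. Of the Cdkn1c UMIs, 83.2% and 68.9% lay in 5 cycling cells of the vehicle and teriparatide libraries.

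The receptor of teriparatide was present in every cycling cell. Pth1r (chr9:110722085-110747145, - strand) ranged from 69.0 to 862 CPM with a median of 396 with vehicle and from 53.4 to 2617 CPM with a median of 342 with teriparatide. Its summed level was 406 and 492 CPM in cycling cells (log2 0.28, 0.05 to 0.50) and 307 and 797 CPM in non-cycling cells (log2 1.37). With 1 library per treatment the difference between those ratios was not tested. Of 11 genes tested of the receptor's cAMP pathway, 2 were past 2-fold higher in teriparatide cycling cells (2.9% of all genes): Pde4b, a cAMP phosphodiesterase, and Nr4a2, a nuclear receptor induced by cAMP, at 107 and 224 and at 18.6 and 64.2 CPM. Nr4a2 passed the filter only through the teriparatide cells. In female cells alone the Pde4b ratio was -1.45. Nr4a1 and Nr4a2 were both lower in cycling than in non-cycling cells, where they stood at 186 and 209 CPM and at 160 and 141 CPM. Gnas, which encodes the G protein subunit behind the receptor, was at 1481 and 1163 CPM.

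Of 5 Hedgehog pathway genes tested between the treatments, 1 was past 2-fold lower with teriparatide (5.92% of all genes) and none higher (2.9%). The 1 was Kif7, at 28.9 and 12.9 CPM, which passed the limit only through the vehicle cells. Gli1, whose locus drives the Cre that labelled the cells, had UMIs in 2 of 15 vehicle and 19 of 50 teriparatide cycling cells, at 4.12 CPM (2 UMIs) and 11.9 CPM. Ptch1, the Hedgehog receptor and a target of the pathway, was at 177 and 186 CPM (log2 0.07, -0.28 to 0.43), with 152 and 162 CPM in non-cycling cells. Hhip, which binds and blocks Hedgehog, was at 49.5 and 84.7 CPM against 95.4 and 131 CPM in non-cycling cells. Kif7, a kinesin of the pathway, was that gene, at 28.9 and 12.9 CPM.

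In the IGF pathway, Igf1r, the receptor, was at 128 and 121 CPM (log2 -0.08, -0.49 to 0.35), with UMIs in all 65 cells, and at 91.9 and 129 CPM in non-cycling cells (log2 0.49, 0.19 to 0.79). Of its adaptors, Irs1 was at 92.8 and 106 CPM (log2 0.19, -0.28 to 0.70) and Irs2 at 41.2 and 99.8 CPM (log2 1.27, 0.61 to 2.02), with an Irs2 ratio of -1.29 (-3.19 to 0.62) in female cells alone. Of 7 genes tested, Irs2 was past 2-fold higher (2.9% of all genes) and Igf2, a ligand, lower (35.1 and 12.9 CPM, 5.92% of all), and Igf2 passed the limit only through the vehicle cells. Igf1, the other ligand, was found in 1 of 15 vehicle and 7 of 50 teriparatide cycling cells, and 97.5% of its teriparatide UMIs lay in 5 cells. It was at 70.1 and 86.3 CPM in cycling cells and at 963 and 240 CPM in non-cycling cells.

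Bone genes were uneven among the cells. Bglap, which encodes osteocalcin, was at 24.7 CPM in vehicle and 651 CPM in teriparatide cycling cells, but 81.4% of the teriparatide UMIs lay in 5 cells. Ibsp, bone sialoprotein, was at 2.06 CPM (1 UMI) and 632 CPM, with 99.8% in 5 cells. Both were low in the upper range of the teriparatide library, at 55.8 and 3.85 CPM. Of 10 osteoblast-list genes tested, 5 were past 2-fold higher in teriparatide cells, Bglap, Bglap2, Ibsp, Spp1 and Alpl, beside 2.9% of all genes, and Ibsp passed the limit only through the teriparatide cells. With every cell thinned before the choice, the ratios of Ibsp (-4.27 to 5.88) and Spp1 (-1.53 to 1.70) were both -0.0026, in effect no difference. With 5 rule genes required that of Spp1 was -0.51 (-2.09 to 1.34). Runx2 and Sp7, the transcription factors of osteoblasts and enlarging chondrocytes, were at 128 and 81.4 and at 80.4 and 64.2 CPM. Dmp1, a marker of mature osteoblasts and osteocytes, had 0 UMIs in both libraries.

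Other cell types left few transcripts in the 65 cells. The 10 erythroid genes summed to 10.3 CPM in vehicle and 99.2 CPM in teriparatide cycling cells, led by Hbb-bs, with Alas2, Car2 and Klf1 at 0. The 13 myeloid genes summed to 24.7 and 159 CPM, led by S100a9. Non-cycling cells showed the same, at 19.3 and 85.5 and at 77.0 and 211 CPM. In all barcodes these lists made up 2.64% and 4.16% and 1.06% and 6.59% of UMIs. The higher blood genes of the teriparatide cells thus moved with the library, and their part in the other differences was not tested. The 6 endothelial genes summed to 6.19 and 6.47 CPM with Cdh5, Kdr, Emcn and Cd34 at 0, and the 7 MALP genes to 18.6 and 12.9 CPM with Adipoq at 0. Prg4, the lubricin of articular cartilage, was at 0. Stress genes such as Fos (3547 and 3928 CPM), Hspa1a and Malat1 were abundant in both. Of 12 tested, 0 were past 2-fold between the treatments, beside 2.9% of all genes higher and 5.92% lower. The list was lower in cycling than in non-cycling cells, at 28175 and 27214 against 38693 and 38881 CPM, with 10 of 12 genes below a ratio of 0 in both libraries, beside 1371 of all 5162. In the upper range it was at 27795 CPM with vehicle and 15861 CPM with teriparatide. Its part in the lower resting-zone, Apoe and Clu levels was not tested.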

How the data were processed

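Single-cell libraries were made from sorted tdTomato+ cells, 1 per treatment. The authors aligned reads to mm10 and counted UMIs with Cell Ranger, version 2.1.0 per the submitters' processing notes, while the matrix headers name software version 3.1.0. The deposited matrices hold raw UMI counts per gene and barcode. All 3428 barcodes were read with Python 3.11.15 and scipy 1.17.1, and counts of 27998 gene IDs were summed by symbol (121 symbols had more than 1 ID). The rule in the first paragraph chose the cells. Member counts were summed per library and divided by their total (CPM). No test between treatments was possible with 1 library each. Genes at a mean of 20 CPM or more were compared, and named genes followed a rule: the label's markers, up to 4 most abundant genes per list, fixed pathway genes, and the 12 or 10 highest and lowest at 50 CPM or more (between treatments only with under 50% of UMIs in 5 cells), leaving out ribosomal, mitochondrial, predicted and sex-linked genes. One gene that the rule names is not reported here. Named genes of other kinds were chosen after their values were seen. The members and gene lists were chosen with earlier results of these data known. Doublets were sought with Scrublet (scanpy 1.11.5), which marked 1 and 2 barcodes and no member, so doublets were in effect not removed. Ratios were checked on simulated counts. Alternatives changed the gene, mitochondrial, Acan, Col10a1 and cycle-gene limits, depth, sex, scale and filter. Replicates could not be left out. UMI totals per library limited precision, and intervals cover counting error only.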

Additional observations from a re-analysis of the deposited data

Results flagged for a closer look

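Barcodes above the limit of 6000 detected genes were not used in the comparisons, and cycle genes were found there too. Of 16 Sox9 Acan barcodes above the limit in the teriparatide library, 15 held at least 2 of the 11 cycle genes and 11 held at least 5; in the vehicle library 3 of 5 held at least 2 and 2 held at least 5. Their median depths were 55349 and 50303 UMIs. None held both Xist and a Y-linked transcript, and Scrublet marked 1 of the teriparatide and 0 of the vehicle barcodes. The G2/M list summed to 3558 CPM and 3467 CPM in these teriparatide and vehicle barcodes, and the S-phase list to 2418 and 1142 CPM. The upper limit therefore removed 13 barcodes with 5 or more cycle genes beside the 18 that were kept. Whether they are single cells was not tested.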

How the results depend on the processing

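No paired analysis was possible because each treatment had 1 library, and for the same reason no replicate could be left out. Of 118 summary values under other settings 75 stayed near the reported value and 43 moved; of 1367 values of single genes, 1074 stayed near it, 273 moved and 20 turned their direction. The causes were not tested. Requiring 3 cycle genes gave a teriparatide share of 10.98%, with 125 genes higher and 89 lower in cycling cells. Requiring 4 gave shares of 14.3% and 6.91%, with 172 higher and 144 lower in cycling cells and 279 higher with teriparatide. Requiring 5, added after seeing the data, gave 7.14% and 5.69%, with 283 higher and 174 lower in cycling cells. Thinning every cell to 5000 UMIs gave shares of 12.5% and 5.75%, 319 genes higher and 529 lower with teriparatide, and 235 higher and 153 lower in cycling cells. Thinning only the cycle genes, also added later, gave 12.5% and 5.88%, 316 and 518, and 221 and 146. Without the upper gene limit 96 genes were higher in cycling cells and 165 lower with teriparatide. Female cells alone gave a teriparatide share of 37.5%, 296 genes higher with teriparatide, and 157 higher and 108 lower in cycling cells. The median ratio as the scale gave 241 higher and 135 lower with teriparatide. A mean of 50 CPM gave 61 and 90 between treatments and 15 and 25 between cell sets, and no filter gave 296 and 535 and 453 and 878. A limit at equal list counts gave S-leaning shares of 60.0% and 53.1%, and 1 of 3 resting genes gave resting marks in 68.0% of teriparatide cells.

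The log2 ratios of teriparatide over vehicle that turned were Ube2c at -0.11 without the gene limit, Slc40a1 at 0.71 with 4 cycle genes, Spp1 at -0.51 with 5, and, with every cell thinned, Ccnd1 at 0.14, Ibsp at -0.0026, Spp1 at -0.0026 and Slc40a1 at 1.00. With only the cycle genes thinned, Ccnd1 was at 0.18, Ibsp at -0.071, Spp1 at -0.071 and Slc40a1 at 0.93. In female cells, Irs2 was at -1.29, Pde4b at -1.45, Mgst2 at -0.29, Serinc5 at -1.12 and Sox11 at 0.93, and the smaller log2 ratio of cycling over non-cycling cells was -1.22 for Hes1, 2.18 for Apoe, 0.12 for Cpm and -0.11 for Cks2. Female cells numbered 3 and 6 among the cycling cells. The counting intervals of the turned ratios included 0 except for Pde4b, Hes1 and Apoe in female cells. A ratio of -0.0026 is in effect no difference. The vehicle library, with 484864 UMIs in 15 cells, limited the precision of ratios between treatments.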
